A study of Mus musculus with 4 samples.

Results

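TRP1high T cells that had been stimulated with the peptide M9 were compared with TRP1high T cells stimulated with the peptide K8, with 1 RNA sequencing library for each peptide out of 4 libraries in the series. The question that this pair addresses is which genes the cells of a single receptor express at another level when only the peptide differs. Every gene that reached 100 normalized counts in either library was ranked by its difference between them, which took in 10182 of the 16338 genes in the files and left out 6156. TRP1high and TRP1low name the T cell receptors (TCRs) of the series, where TRP1 is a protein of melanocytes and a target antigen in melanoma. In every group, mouse T cells were cultured for 48 h with B cells that presented K8 or M9, and the T cells were then recovered by flow sorting. The sources used here do not give the strain and age of the mice, the sequences of K8 and M9 or the way the TRP1high cells were obtained.

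A CD8 T cell reads a short peptide held by an MHC class I molecule, and how long and how strongly the receptor engages it sets the size and the kind of the response. Early signals switch on immediate transcription factors such as those of the NR4A, EGR and AP-1 families. Effector genes follow, among them interferon gamma, perforin and chemokines, together with surface receptors that boost or restrain the cell and intracellular inhibitors that limit the signal. Activated T cells also change the receptors by which they sense cytokines and find their way through tissue.

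Each group has a single library, so the spread between cultures is unknown and no p-value is given. A level is a normalized count, that is 2 to the power of the deposited log2 value, minus 1, and a difference is the deposited log2 value with M9 minus that with K8. Levels of a pair are given with K8 first and M9 second. The libraries held between 29.6 and 41.5 M estimated reads, with 40.5 and 41.5 M in the TRP1high pair, in which 1 read was worth 0.998 and 0.9896 normalized counts. A fold is a ratio of normalized counts, and its 95% exact (Clopper-Pearson) interval takes in counting error alone, as PCR copies could not be told from separate molecules. A gene at 0 was set at a floor of 3 reads per library, which makes its fold a lower bound. The labelled cell type was checked on its defining genes. The coreceptor genes Cd8a (20552 and 28452) and Cd8b1 (18589 and 21506) were abundant in both libraries, as was the receptor chain gene Trac (13198 and 17260.2), while Cd4 was at 2.12 and 0. B cell genes were present too. The 24 B cell markers in the files summed to 21916 and 17366 normalized counts, of which Ighm, the heavy chain of immunoglobulin M, made up 17540.0 and 16033. The sums therefore mostly follow Ighm and say little of the other markers. None of the 24 was at 0 with K8 and 5 were at 0 with M9, and of the 10 that were ranked, 8 had levels under M9 that were lower by 2-fold or more. The median difference of these 10 was -2.38. In this bulk RNA, fewer cells of a type and less RNA per cell cannot be told apart.

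A level at least 2-fold higher with M9 was found for 331 genes, or 3.25% of the ranked genes, and one at least 2-fold lower for 242, or 2.38%, which makes 5.63% in either direction. At least 4-fold higher were 87 genes and at least 4-fold lower 69, and 8-fold was passed by 28 and 33. The bulk of the genes lay close together: the median difference was -0.04, the quartiles were -0.26 and 0.20, and the 5th and 95th percentiles -0.71 and 0.78. Differences were commoner among weakly expressed genes. Of the 4177 genes whose larger level was between 100 and 1000 normalized counts, 9.94% were 2-fold apart, against 2.75% of 5227 genes between 1000 and 10000 and 1.80% of 778 genes above that. Among those 778 most abundant genes, 12 were 2-fold higher with M9 and 2 were lower. In the separate TRP1low pair, 5.26% of ranked genes passed 2-fold upward with M9 and 4.85% downward, and whether the pairs differ in this was not tested. At the threshold, Rph3al (100.1 and 90.6) and Tln2 (100.2 and 67.8) were the last genes inside, and Bik (26.95 and 99.9) and Tigd5 (71.9 and 99.9) the first outside.

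**Figure D1:**
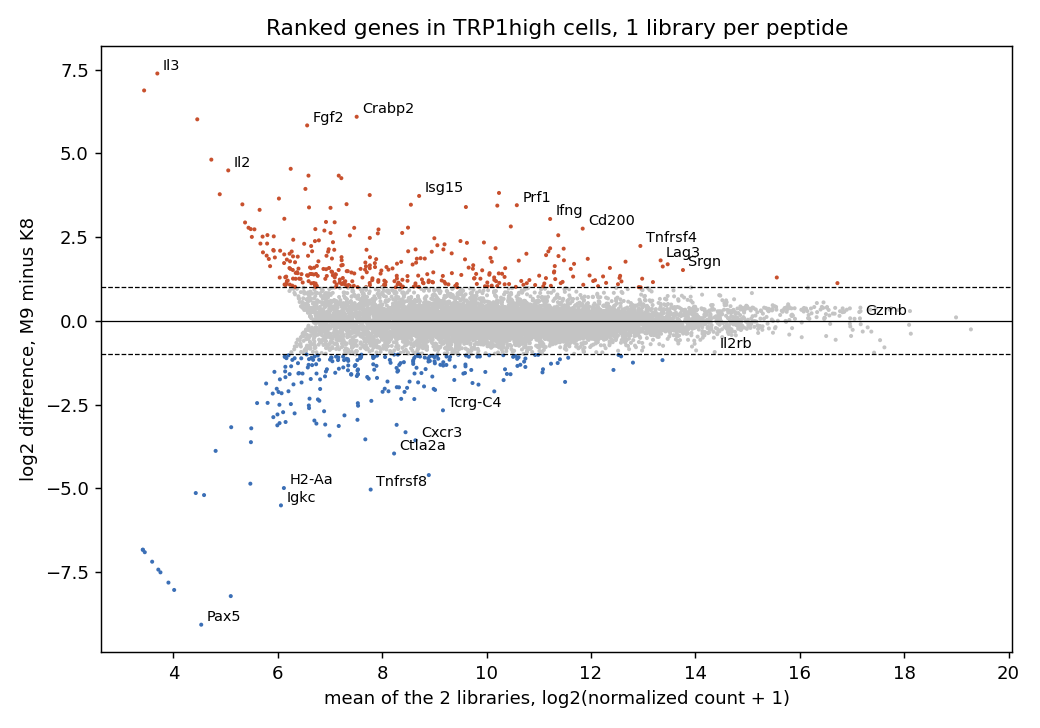
Each point is 1 of the 10182 ranked genes in the TRP1high pair, with the mean log2(normalized count + 1) of the K8 and M9 libraries on the horizontal axis and the log2 difference, M9 minus K8, on the vertical axis. Dashed lines mark 2-fold, orange points (331) lie at or above the upper line and blue points (242) at or below the lower one, and most of the genes far from 0 have low mean levels.

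The genes with the largest differences were not all T cell effector genes. Il3, a growth factor for blood cell progenitors made by activated T cells, was at 0 and 166 normalized counts, at least 55.5-fold higher with M9. Crabp2, which carries retinoic acid to its nuclear receptors, was at 21.1 and 1507, a 71.5-fold difference (95% counting interval 46.9 to 117). Fgf2, a fibroblast growth factor, stood at 11.5 and 714 (61.99-fold, 33.9 to 116). These 3 genes had few or no reads with K8, so the upper ends of their folds are poorly fixed. Leaving out unnamed gene models (symbols of Gm and digits, Rik and -ps), further genes among the 15 highest were Cnih3 (1.73 and 176), Impg2 (0 and 117), the potassium channel gene Kcnk10 (20.4 and 432), Igfbp7 (31 and 645), Rasgef1b (33.00 and 651), Ifitm3 (6.99 and 109) and Myh10 (58.02 and 797). Idi2, an isopentenyl-diphosphate isomerase gene, was at 3.99 and 139.5 in the TRP1high pair and at 134 and 53.5 in the TRP1low pair, where the order was the opposite.

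Among the 15 largest differences in the other direction, again without unnamed gene models, several were B cell genes. Pax5, the transcription factor that fixes B cell identity, was at 535 with K8 and at 0 with M9, at least 180.4-fold lower. The immunoglobulin light chain gene Igkc (449 and 8.91), the B cell receptor component Cd79a (145 and 2.97), the CD20 gene Ms4a1 (156 and 11.8), Fcrl1 (107 and 6.31) and the MHC class II gene H2-Aa (390.2 and 11.3) were lower as well. In the TRP1low pair Pax5 was scarce and not lower with M9, at 9.61 and 17.5. The other genes just named were lower with M9 there too, Igkc at 531 and 74.5 among them. Ighm, by far the most abundant B cell marker, was close in the 2 libraries, with a difference of -0.13. It was also close in the TRP1low pair, at 18149 and 16446, and so did not follow Igkc in either pair. The part of B cell RNA in the differences of other genes was not tested. Of genes known from T cells, the lowest with M9 were Tnfrsf8 and Ctla2a. Tnfrsf8 encodes CD30, a TNF receptor family member of activated lymphocytes, and stood at 1257 and 37.4, a 33.6-fold lower level (24.2 to 47.4). Ctla2a, a cysteine protease inhibitor gene of activated T cells, stood at 1182 and 75.1 (15.7-fold lower, 12.5 to 20.1). Others were Slc16a5 (127 and 2.63), Fbln2 (239 and 7.26), Drc1 (696 and 59.1) and Hemgn (415 and 37.9). Exosc6 (224 and 0) and Hist1h2ap (119 and 0) are uncertain, because 100% and 93.4% of their 31-base stretches also occur in Aars and Hist1h2ao, between which estimated reads can be divided.

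The ranked genes were then read family by family over 35 lists, and 8 lists of cell type markers. The share of members with a 2-fold higher level under M9 was 3 of 4 chemokines, 4 of 6 killer lectin-like receptors, 12 of 25 immediate early transcription factors, 8 of 18 inhibitory receptors and 19 of 46 type I interferon-stimulated genes, where 3.25% of all ranked genes were. The share with a 2-fold lower level was 4 of 7 chemokine receptors, 5 of 16 effector and exhaustion transcription factors, 5 of 25 cytokine receptor chains and 4 of 19 STAT and SOCS genes, where 2.38% of all ranked genes were. At the other end, none of the ranked guanylate binding protein, MHC class I presentation, glycolysis, cholesterol synthesis, nuclear respiratory chain, unfolded protein response, ribosome biogenesis, mitosis or BCL2 family genes was 2-fold apart. These lists hold 15 to 32 ranked genes, and with 5.63% of all ranked genes 2-fold apart, a count of 0 in lists of this size lies near the background. The counts given for each list below are to be read beside the same 3.25% and 2.38%.

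**Figure D2:**
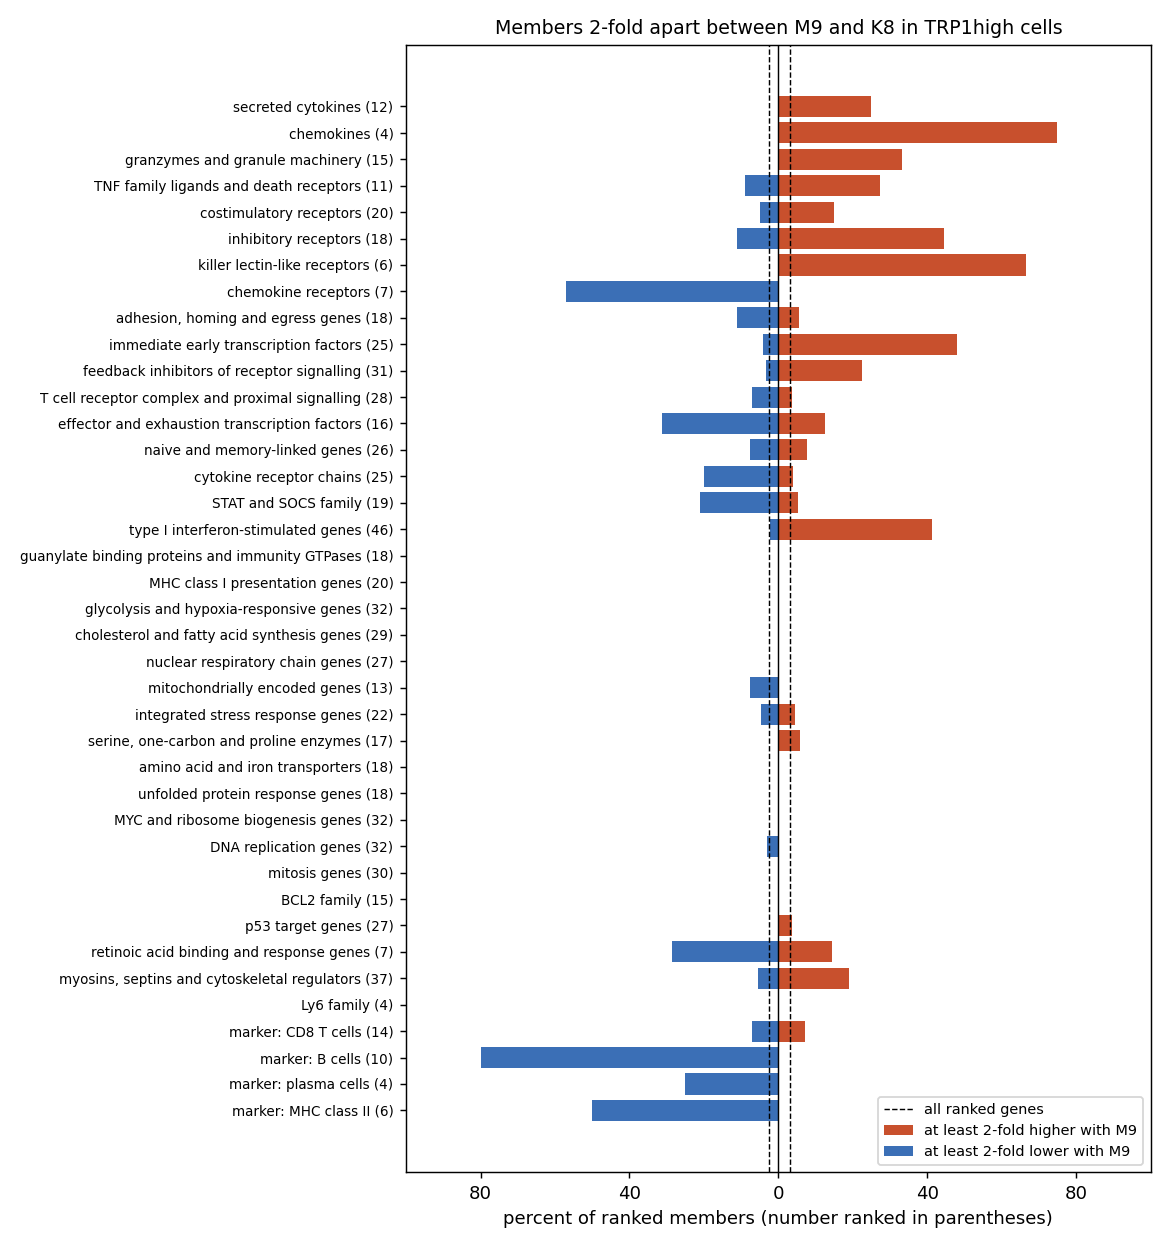
Bars show, for each gene list with at least 4 ranked members, the percentage of ranked members that passed 2-fold upward (orange, to the right) or downward (blue, to the left) with M9 in TRP1high cells, with the number of ranked members in parentheses. Dashed lines mark the 3.25% and 2.38% of all ranked genes, and effector, inhibitory receptor, immediate early and interferon-stimulated lists extend furthest to the right, while chemokine receptors and B cell markers extend furthest to the left.

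Of 27 listed cytokines, 20 were in the files and 12 were ranked, 3 of which were 2-fold higher under M9 and none lower. Ifng, the gene for interferon gamma at chr10:118441046-118445892, was at 829 normalized counts with K8 and 6839 with M9, 8.25-fold higher (7.67 to 8.87). Il2, the T cell growth factor, was at 5.99 and 156 (26.1-fold, 11.7 to 72.2), and Il3 was described above. Both interleukins reached the threshold with M9 alone, and remained scarce beside Ifng even then. The other 9 ranked cytokines were under 2-fold apart. Among them, Lif was at 2491 and 4565, the tumour necrosis factor gene Tnf at 396 and 276, and the lymphotoxin genes Lta and Ltb at 8084 and 5161 and 6654 and 4147, so that these TNF family cytokines were lower rather than higher with M9. Mif, the most abundant cytokine of the list, was at 27547 and 37724, a value that is uncertain because 60.5% of its 31-base stretches occur in other transcripts. Under the TRP1low receptor Ifng was at 7609.8 and 13898, Il2 at 64.3 and 96.5, Il3 at 19.1 and 67.1 and Lta at 1986 and 9759.

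Of the 4 ranked chemokines, 3 were higher with M9, by 7.07-fold to 10.9-fold. Ccl3 and Ccl4, inflammatory chemokines that activated CD8 T cells secrete, were at 357 and 3893 and at 531 and 3753. Xcl1, which attracts cross-presenting dendritic cells, was at 239 and 2528 (10.6-fold, 9.28 to 12.2). Ccl5, a further chemokine of effector T cells, was barely inside the ranking at 96.00 and 102. The remaining 8 chemokines in the files stayed under 100 normalized counts in both libraries. With TRP1low, Ccl3 (1737 and 5565) and Ccl4 (1375 and 5607) were likewise higher under M9, while Xcl1 (4575 and 3027) was higher with K8.

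**Figure D3:**
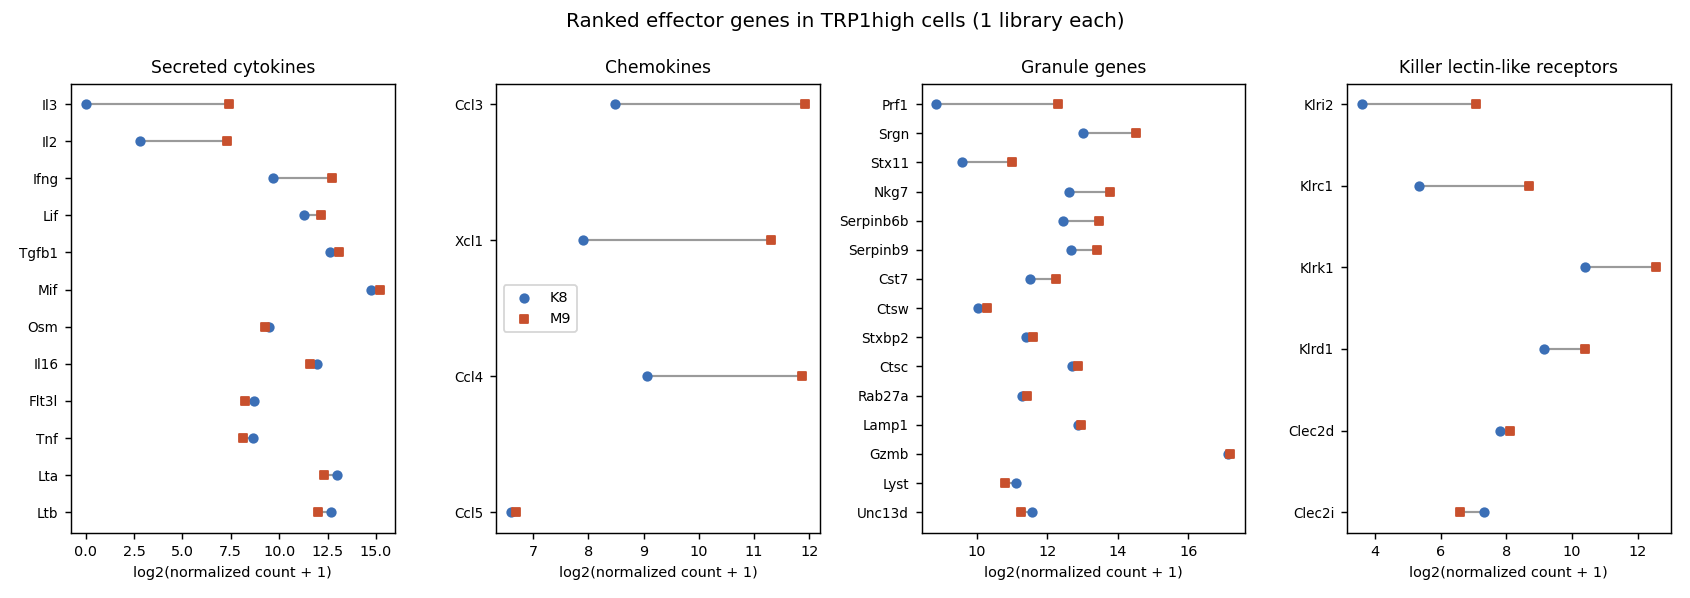
For 4 effector families, each row is 1 ranked gene, and the blue circle and orange square give log2(normalized count + 1) in the TRP1high libraries with K8 and M9, 1 library each, with scales that differ between panels. The orange square lies to the right for Il3, Il2, Ifng, Ccl3, Xcl1, Ccl4, Prf1 and 4 lectin-like receptors, while the symbols of Gzmb almost coincide.

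The granule genes split between perforin and the granzymes. Prf1, whose product perforin opens pores in target cells, at chr10:61297833-61304680, was at 461 and 5066, 10.98-fold higher with M9 (9.99 to 12.1). Gzmb, the protease that perforin lets in, was at 142017 and 149629, a difference of 0.08, and it was the most abundant gene of the list in both libraries. TRP1low cells had Gzmb at 30410.0 and 128160.0 and Prf1 at 436 and 3007. Of 15 ranked granule genes, 5 were at least 2-fold higher and none lower. Besides Prf1 these were the granule proteoglycan Srgn (8211 and 23530.0), the membrane fusion protein Stx11 (772 and 2048), Nkg7 (6243 and 13941) and the serpin Serpinb6b (5595 and 11217), the last of which fell under 2-fold in some of the alternative settings. Other steps of granule release were closer, among them Rab27a (2493 and 2719.6), Unc13d (3059 and 2459) and Lamp1 (7497 and 7992). Gzma was under the threshold at 82.8 and 5.97.

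Death ligands of the TNF family differed in opposite directions. Fasl, which kills cells that carry FAS, was at 236 and 858 (3.64-fold higher with M9, 3.15 to 4.22). Tnfsf10, the gene for TRAIL, was at 529 and 184 (2.87-fold lower, 2.43 to 3.41). Of 11 ranked genes of this list 3 were 2-fold higher and 1 was lower. Tnfsf9 (40.9 and 102), the ligand of CD137, and Tnfsf11 (273 and 555), the ligand RANKL, were the other higher ones. The receptor genes Fas (713 and 713) and Tnfrsf10b (985 and 1011) had nearly the same level with both peptides.

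Killer lectin-like receptors, which natural killer cells and activated CD8 T cells share, were higher with M9 in 4 of the 6 ranked cases and lower by 2-fold in none. Of the higher ones, Klrc1 and Klri2 reached the threshold with M9 alone. The median difference was 1.72 over the 6 ranked members and 0.51 over all 12 in the files. Klrk1 encodes the activating receptor NKG2D and was at 1349 and 6021 (4.46-fold, 4.21 to 4.74). Klrd1 (CD94) was at 559.8 and 1358 and its partner Klrc1 (NKG2A), with which it forms an inhibitory receptor, at 39.02 and 415. The value of Klrc1 is uncertain, since 53.1% of its 31-base stretches are shared, mostly with Klrc2. Klri2 was at 10.98 and 133. Klrg1, a marker of terminal effector cells, was at 0 in both libraries.

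Among receptors that costimulate T cells, 3 of 20 ranked genes were 2-fold higher under M9 and 1, Tnfrsf8, was lower. Tnfrsf4, the OX40 gene, was at 3634 and 17144 (4.72-fold, 4.55 to 4.89), and Tnfrsf9, the CD137 gene, at 6052 and 18658 (3.08-fold, 2.99 to 3.17). Both sustain survival and effector function after antigen contact. Slamf1 was at 1149 and 2428. Tnfrsf18 (6458 and 12277), the GITR gene, stayed just under 2-fold, Cd28 was at 10752 and 14148, and Icos was lower with M9 at 7631 and 5248.

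Inhibitory receptors and their relatives were higher with M9 in 8 of 18 ranked cases and lower in 2, and the median of the list was 0.94. Cd200, a ligand that restrains myeloid cells, had the largest difference, at 1412 and 9536 (6.75-fold, 6.39 to 7.15). The checkpoint receptor genes Pdcd1 (1123 and 5050.2), Tigit (1142 and 4458) and Lag3 (5523 and 19322) were 3.50 to 4.50 times as high with M9. Cd5, which dampens TCR signals and is set by their strength, was at 3044 and 9113. Nrn1 (351 and 1768), the ligand gene Pdcd1lg2 (304 and 833) and Btla (3142 and 6451) complete the 8. Ctla4, the rival of CD28 for its ligands, did not follow them and was at 15100.5 and 10984, while in the TRP1low pair it was at 2865 and 8491. Nt5e (295 and 96.3), the ectoenzyme CD73, and Lair1 (119 and 34.97) were the 2 lower genes. Havcr2, the gene for TIM-3, was under the threshold at 14.4 and 3.09.

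**Figure D4:**
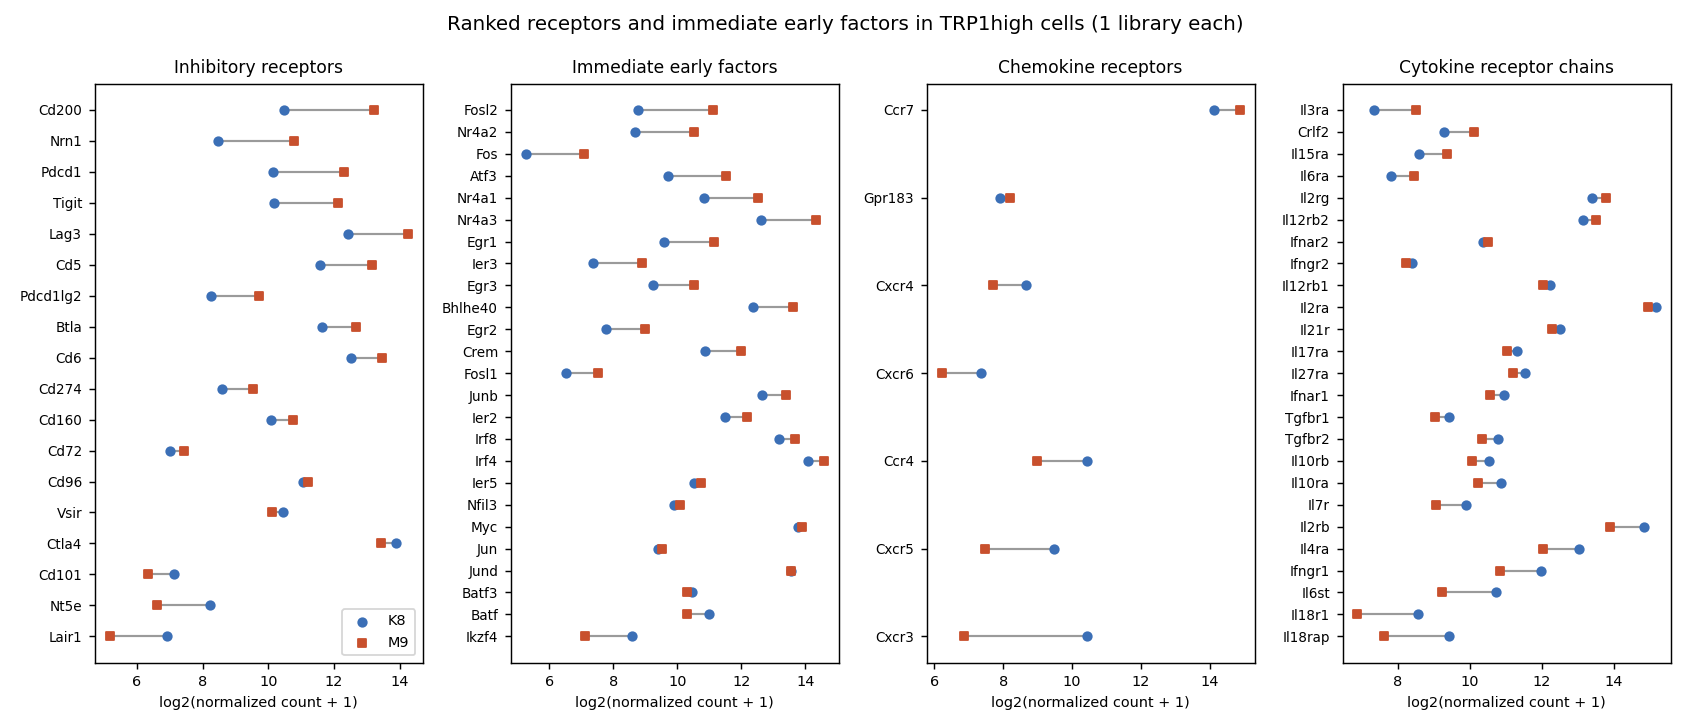
For inhibitory receptors, immediate early factors, chemokine receptors and cytokine receptor chains, each row is 1 ranked gene, and the blue circle and orange square give log2(normalized count + 1) in the TRP1high libraries with K8 and M9, with scales that differ between panels. Most inhibitory receptors and immediate early factors have the M9 symbol to the right, and 5 of 7 chemokine receptors and 18 of 25 cytokine receptor chains have it to the left.

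Transcription factors induced early after TCR engagement had 2-fold higher levels under M9 in 12 of 25 ranked cases and lower in 1. The nuclear receptors of the NR4A family, much used as readouts of TCR signal strength, were all higher: Nr4a1 was at 1813 and 5904, Nr4a2 at 406 and 1453 and Nr4a3 at 6313 and 20389. The zinc finger factors Egr1 (759 and 2263), Egr2 (218 and 512) and Egr3 (609 and 1460.2) were 2.35 to 2.98 times as high. Within AP-1, Fosl2 (438 and 2225) was 5.08-fold higher (4.58 to 5.64) and Fos, at 37.3 and 135, 3.63-fold. The JUN genes, whose products pair with those of FOS genes, were closer, with Junb at 6452 and 10698, Jun at 666 and 731 and Jund at 11982 and 11866. The other higher genes were Atf3 (841 and 2929.9), Ier3 (163 and 472), Bhlhe40 (5223 and 12514) and Crem (1855 and 4055). Irf4, whose level in T cells scales with receptor affinity, was at 17504 and 24319, and Myc at 13861 and 15239. The Ikaros family gene Ikzf4 was the lower one, at 381 and 138. In the TRP1low pair the list's median was 0.70, beside 0.99 here, and the difference between the pairs was not tested.

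Inhibitors that feed back on receptor signalling followed in part, with 7 of 31 ranked genes at least 2-fold higher and 1 lower. Those with a larger level under M9 included the Sprouty genes Spry1 (316 and 1654) and Spry2 (39.9 and 201), which block RAS signalling, and the MAP kinase phosphatases Dusp4 (1518 and 4134), Dusp5 (2791 and 6375) and Dusp6 (658 and 1711). Ubash3b (736 and 1969), a phosphatase that acts on ZAP70, and the adaptor Sla (3784 and 9621) were higher too. Cbl, a ubiquitin ligase that takes the receptor complex down, was at 5461 and 1545, 3.53-fold lower (3.34 to 3.74). Its relative Cblb was at 5907 and 11166, so the CBL genes differed in opposite directions. Grouped by symbol, 4 of 14 ranked Dusp genes and 3 of 8 ranked Rgs genes were 2-fold higher, Rgs2 (93.7 and 627) among the latter, beside 3.25% of all ranked genes. Rgs12, with a difference of -1.32, was the 1 Rgs gene that was 2-fold lower, and no Dusp gene was.

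Of 28 ranked genes for the TCR complex and its proximal signalling proteins, 1 was 2-fold higher and 2 were lower, and the median was 0.22. These shares lie near the 3.25% and 2.38% of all ranked genes. Cd3d (10556 and 17778), Cd3e (6753 and 10419) and Cd3g (8143 and 12843) were 1.54 to 1.68 times as high with M9, and the kinase gene Lck was level at 17403 and 17919. Malt1, the protease that links the receptor to NF-kappaB, was the higher gene at 3036 and 7621. Themis (8823 and 4242), which tunes the receptor signal, and the adaptor gene Trat1 (205 and 60.4) were the lower ones.

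Of 16 ranked transcription factors of effector differentiation, 5 were 2-fold lower under M9 and 2 were higher. Prdm1, the gene for Blimp-1, which drives terminal effector cells, was at 245 and 47.4 (5.16-fold lower, 3.76 to 7.17). Eomes (2156 and 792), a T-box factor of effector and memory CD8 cells, Id2 (885 and 279), Ikzf2 (576 and 133) and Runx1 (151 and 60.2) were lower as well. Prdm1 is also a marker of plasma cells and was listed as one. The plasma cell markers Jchain (30.8 and 5.09) and Mzb1 (58.9 and 0.989), both under the threshold, were lower with M9 too. Of the 4 ranked plasma cell markers, Prdm1 among them, 2 lay above 0 and 2 below, with a median of 0.03. The most abundant of them, Irf4, was higher with M9 at 17504 and 24319. The part of plasma cell RNA in the Prdm1 values was not tested. Zeb2, a partner of T-bet in terminal effector cells, was higher at 39.8 and 271, and Stat4 stood at the edge of 2-fold at 5446 and 10964. The T-bet gene Tbx21 (3319.9 and 4008) and Tox (978 and 1302) were close.

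Genes linked to the naive or memory state split evenly, with 2 of 26 ranked genes 2-fold higher and 2 lower. These shares of 7.69% each stand beside 3.25% and 2.38% of all ranked genes. Zeb1 (481 and 1525), a repressor that supports memory cells, and Dapl1 (1876 and 4207) were higher. Eomes and Klf2 (588 and 252) were the lower ones. Tcf7, which keeps T cells able to renew, was at 11505 and 8448 and Lef1 at 2614 and 2117, both lower with M9 by less than 2-fold, while Bach2 (1523 and 2926) was higher by less than 2-fold. The interleukin 7 receptor gene Il7r was at 952 and 529.

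Chemokine receptors were largely lower with M9, 4 of 7 ranked members by 2-fold or more, and none was 2-fold higher. Cxcr3, which guides effector T cells to inflamed tissue, was at 1368 and 115 (11.9-fold lower, 9.85 to 14.5), and in the TRP1low pair it was at 1197 and 112. Cxcr5 (711 and 177), which B cells also express, Ccr4 (1387 and 502) and Cxcr6 (165 and 73.2) were the other lower genes. Ccr7, the lymph node homing receptor, was the most abundant member and was higher with M9 at 17558 and 29654, by 1.69-fold. Among genes of exit from lymph nodes, the sphingosine phosphate receptor S1pr1 was at 430.2 and 132 and Klf2, which drives it, at 588 and 252. Of 18 ranked adhesion, homing and egress genes 1, Nectin1 (18.02 and 107), was 2-fold higher, and S1pr1 and Klf2 were 2-fold lower. Among all ranked genes, 3.25% were 2-fold higher and 2.38% lower.

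Cytokine receptor chains were lower with M9 in 18 of 25 ranked cases, 5 of them by at least 2-fold, with 1 at least 2-fold higher. Both chains of the interleukin 18 receptor, which lets T cells make interferon gamma without antigen, were among the lower: Il18r1 was at 374 and 117 and Il18rap at 689 and 196. Il6st (1707 and 593), the signalling chain shared by receptors of the interleukin 6 family, the interferon gamma receptor gene Ifngr1 (4035 and 1823) and Il4ra (8406 and 4153) were lower too. Il4ra fell under 2-fold in some alternative settings. Il2ra, the high-affinity chain of the interleukin 2 receptor, was at 36584 and 31658 and its signalling chain Il2rb at 29238 and 15344, a difference of -0.93. Il3ra was the only 2-fold higher chain, at 161 and 363, so that Il3 and its receptor gene were both higher with M9.

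Suppressors of cytokine signalling were lower with M9 in 4 cases: Socs2 (2524 and 1018), Socs3 (1171 and 558), Socs4 (1823 and 896) and Socs6 (915 and 434). Socs2, a target of STAT5 that limits growth hormone and cytokine receptors, was at 90.04 and 1406 in the TRP1low pair, the opposite order. Cish, another STAT5 target, was close at 4743 and 4374. Stat4 was the only STAT gene of the list that was 2-fold apart, and Stat5b was at 3875 and 4107. Of the 19 genes of the STAT and SOCS list, 11 were lower and 8 higher with M9.

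Interferon-linked genes were read as separate lists. Type I interferons act through a transcription factor complex that binds interferon-stimulated response elements in promoters, while interferon gamma acts mainly through STAT dimers. Many guanylate binding proteins respond to interferon gamma. To show the elements that the names refer to, the 250 bases before the start of 4 genes are printed 5′ to 3′ on the gene's strand, from RefSeq on GRCm38.p6, with matches to GAAANNGAAA on either strand in capitals. Isg15 (chr4:156200819-156201068, minus strand) had 3 overlapping matches and the others had 1 each, in Rsad2 (chr12:26456453-26456702, minus), Oas3 (chr5:120777660-120777909, minus) and Gbp2 (chr3:142620413-142620662, plus).
Isg15: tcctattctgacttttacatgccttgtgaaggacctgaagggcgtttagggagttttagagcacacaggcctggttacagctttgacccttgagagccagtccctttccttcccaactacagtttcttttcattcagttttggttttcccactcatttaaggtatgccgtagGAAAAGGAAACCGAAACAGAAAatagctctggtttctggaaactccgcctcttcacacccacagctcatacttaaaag
Rsad2: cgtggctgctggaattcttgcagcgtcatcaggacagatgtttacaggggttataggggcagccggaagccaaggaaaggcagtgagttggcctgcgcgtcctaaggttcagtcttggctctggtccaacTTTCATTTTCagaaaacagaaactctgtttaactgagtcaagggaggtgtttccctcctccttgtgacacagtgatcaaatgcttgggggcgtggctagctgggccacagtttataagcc
Oas3: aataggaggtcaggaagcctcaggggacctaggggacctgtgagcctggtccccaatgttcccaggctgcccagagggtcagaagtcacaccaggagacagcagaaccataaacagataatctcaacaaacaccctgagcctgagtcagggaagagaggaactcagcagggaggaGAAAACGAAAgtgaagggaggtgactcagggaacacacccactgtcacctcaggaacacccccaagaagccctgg
Gbp2: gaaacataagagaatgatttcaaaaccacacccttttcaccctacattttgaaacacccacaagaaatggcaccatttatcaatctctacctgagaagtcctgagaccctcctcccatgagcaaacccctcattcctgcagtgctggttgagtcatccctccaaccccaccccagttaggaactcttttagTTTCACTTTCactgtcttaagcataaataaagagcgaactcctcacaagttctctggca

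Of 46 ranked type I interferon-stimulated genes, 19 were 2-fold higher under M9, 1 was lower, and 42 lay above 0, with a median of 0.88. Isg15, a ubiquitin-like protein, was at 114 and 1523 (13.4-fold, 11.1 to 16.3). The antiviral enzyme gene Rsad2 was at 14.9 and 158 and Mx2 at 15.6 and 113. Irf7, the factor that amplifies interferon production, was at 91.1 and 512 in TRP1high cells and at 272 and 71.2 in the TRP1low pair, which ran the other way. Ifi27l2a (1093 and 6436), Usp18 (217 and 1203), which removes ISG15 from proteins, Oas3 (867 and 3481), which senses viral RNA, Trim30a (2065 and 7461) and Xaf1 (275 and 1209) were also higher. Some classical members were close or lower: Ifit1 was at 124 and 137 and Ifit2 at 751 and 483. Ifi203, at 2114 and 1004, was the 2-fold lower gene of the list. Related genes outside the list were not counted. Among these, Ifit1bl1 was 8.40-fold lower with M9, at 201 and 23.9, while Ifitm3, given above, was higher. Under TRP1low, 1 of 38 ranked members was 2-fold higher with M9 and 13 were lower, with a median of -0.28, and the difference between the pairs was not tested. Grouped by symbol, 7 of 12 ranked Ifi genes were 2-fold higher and 1 was lower; several of these genes stand beside each other on chromosome 1 and resemble one another in sequence, so their single values carry the uncertainty of divided reads.

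Of 18 ranked guanylate binding proteins and related GTPases, 13 lay below 0 and the median was -0.12. None was 2-fold apart, which in a list of this size lies near the 5.63% of all ranked genes. Gbp2 was at 14319 and 14122 and Igtp, the most abundant member, at 20917 and 16597. Irf1, a transcription factor gene that interferon gamma induces, was at 3757 and 2699.8. Of 20 ranked MHC class I presentation genes, 12 lay above 0 and 8 below, with differences of -0.74 to 0.91 and a median of 0.20. Among them, H2-K1 was at 40373 and 54668 and B2m at 59658 and 75135.

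The letters of the response element were found in both sets. GAAANNGAAA stood in 2.98% of all 32851 promoter windows in RefSeq's table and in 3.37% of the 7773 ranked genes with a window. It stood in 16 of 38 type I interferon-stimulated genes with a window and in 10 of 11 guanylate binding protein and GTPase genes. Among interferon-stimulated genes, the median difference was 1.003 with the match (16 genes) and 0.74 without (22 genes), and 8 genes in each group were 2-fold higher. The palindrome TTCNNNGAA, which dimers of STAT factors can bind, stood in 5 of 38 and 7 of 11, and in 7.02% of all windows. A match describes letters in the window, and a window with none says nothing of the factors.

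**Figure D5:**
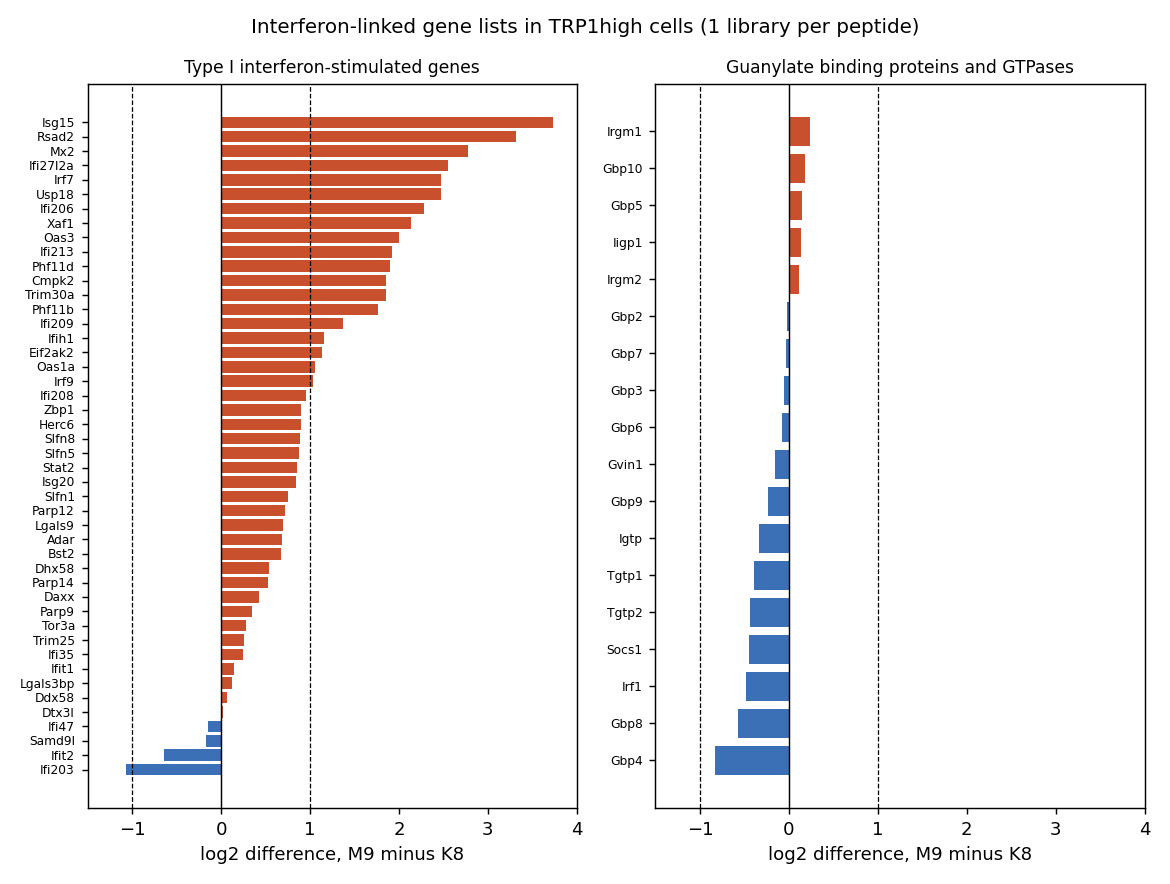
Bars show the log2 difference, M9 minus K8, of each ranked gene in TRP1high cells for type I interferon-stimulated genes on the left (46 genes) and guanylate binding proteins and related GTPases on the right (18 genes), with orange for values above 0, blue for values below 0 and dashed lines at 2-fold. On the left 42 bars point to the right and 19 pass 2-fold, and on the right no bar reaches either line.

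Metabolic genes were read list by list. Of 32 ranked glycolysis and hypoxia-responsive genes, 27 lay above 0, with a median of 0.34. None was 2-fold apart, which in a list of this size lies near the 5.63% of all ranked genes. Gapdh was at 127826 and 168195, Ldha at 148904 and 187809, and the lactate exporter Slc16a3 at 4802 and 9271, the largest difference of the list at 0.95. For TRP1low, 13 of 32 were 2-fold higher with M9. Cholesterol and fatty acid synthesis genes had a median of -0.04 over 29 genes, with Fasn at 32991 and 27303. The lists of amino acid and iron transporters, the unfolded protein response and the integrated stress response had medians of -0.16, -0.09 and -0.03. Within the last list, Atf3, given above, was 2-fold higher and Stc2 was lower at 204 and 70.9, and within the serine and one-carbon list Cbs, the first enzyme of transsulfuration, was higher at 28.3 and 124.

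The lists of DNA replication, ribosome biogenesis and mitosis genes were a little lower with M9. Genes with Rpl and Rps symbols, which include those of ribosomal proteins, lay the other way. The 48 ranked Rpl genes had a median of 0.33 and the 44 ranked Rps genes a median of 0.30, with none 2-fold apart. Rplp0 (216897 and 271747) and Rps2 (193360 and 243297) were among the 10 largest gains in normalized counts. Of 32 DNA replication genes, 30 lay below 0, with a median of -0.23. Of all 10182 ranked genes, 5610 lay below 0, with a median of -0.04. Orc1, a subunit of the origin recognition complex, was at 2775 and 1371 and alone passed 2-fold, though not in every alternative setting. The cyclin genes Ccne1 (5515 and 3459) and Ccne2 (2959 and 1622), which start S phase, were lower by less than 2-fold. Of 32 MYC and ribosome biogenesis genes 26 lay below 0 (median -0.22), and of 30 mitosis genes 22 (median -0.15), with Mki67 at 5967 and 5686. Survival genes of the BCL2 family had a median of 0.04, with Bcl2 at 5294 and 5228 and Mcl1 at 7671 and 8851. Of 27 ranked p53 targets 1 was 2-fold apart, near the 5.63% of all ranked genes. This was the desmosome gene Perp at 543 and 2448, while Cdkn1a was at 2792 and 3190.2.

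All 13 protein-coding genes of the mitochondrial genome were lower with M9, by differences of -0.25 to -1.17. Their sum was 6.08% of the normalized counts with K8 and 4.33% with M9, and in the TRP1low pair 7.34% and 7.47%. The genes for respiratory chain subunits encoded in the nucleus did not share this: 23 of 27 lay above 0, with a median of 0.13. The size of the mitochondrial difference depends on copies of these genes on chromosome 1, which carry nearly the same sequence. Gm10925 holds 99.5% of the 31-base stretches of mt-Atp6 and was at 51732 and 102909, and Gm28661 holds 99.5% of those of mt-Co2 and was at 30836 and 75721. With the copies added, the difference of mt-Atp6 went from -0.95 to -0.37, that of mt-Co2 from -0.79 to -0.37 and that of mt-Nd3, which alone was 2-fold lower, from -1.17 to -0.52. The summed share was then 6.77% with K8 and 5.16% with M9. Lars2, a mitochondrial leucyl-tRNA synthetase gene, had the largest gain in normalized counts of any ranked gene, at 73119 and 159808 (2.19-fold), and 43826 and 136006 in the TRP1low pair.

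Crabp2 stood apart from the genes of its pathway. Of 7 ranked retinoic acid binding and response genes it alone was 2-fold higher, while the receptor gene Rxra (720.0 and 310.1) and the transglutaminase Tgm2 (1114 and 544), a known retinoic acid target, were lower. Rara was at 732 and 489. TRP1low cells had Crabp2 at 16.3 and 1644, Rxra at 2093 and 573 and Tgm2 at 10.1 and 252. Among 37 ranked cytoskeletal genes, 7 were 2-fold higher and 2 lower, or 18.9% and 5.41%, beside 3.25% and 2.38% of all ranked genes. Myh10, a non-muscle myosin heavy chain, was at 58.02 and 797, while Myh9, the form that dominates in lymphocytes, was at 16945 and 16442. Myo1e (98.6 and 433) and Myo1f (293 and 96.9), a closely related pair of motors, differed in opposite directions. The galectin gene Lgals3 was at 48.5 and 132 here and at 1059 and 12.5 in the TRP1low pair. Myeloid markers also differed in the TRP1low pair, as given below. Anxa2 (2544 and 5376) and Capg (1346 and 2829) were higher with M9, and S100a6 (326 and 156) was lower.

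Constant genes of the gamma chain of the gamma delta TCR were lower with M9; they were picked out after their values were seen. Tcrg-C4 was at 1446 and 227, Tcrg-C1 at 908 and 105 and Tcrg-C2 at 512 and 65.3, between 6.38-fold and 8.66-fold lower. In the TRP1low pair these 3 genes were between 2.10 and 15.05 normalized counts. The delta constant gene Trdc was closer, at 676 and 464, and in the TRP1low pair at 1179 and 795. The 3 gamma constant genes are similar to one another, and the division of reads between them is uncertain. All 3 were ranked, but they were not among the 7 listed markers of natural killer and gamma delta T cells in the files. Of these 7, Trdc alone was ranked, and Tyrobp (3.01 and 1.99) and Fcer1g (5.81 and 6.28) were near the floor. That count therefore leaves out the lower gamma constant genes.

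Markers of other cell types were checked in the same way. MHC class II genes, which B cells express, were lower with M9 in 3 of 6 ranked cases, H2-Eb1 (300.5 and 45.5), H2-Aa and Cd74 (1353 and 648), but H2-Ab1 was higher at 431 and 674. The 11 myeloid and dendritic markers in the files summed to 117 and 125 normalized counts, with 2 at 0 in each library, and Cd68 (50.6 and 108) alone was ranked. The 5 erythroid markers summed to 3.18 and 9.46. In the TRP1low pair, the myeloid and dendritic markers summed to 380 and 97.0 normalized counts and the erythroid markers to 609 and 3.62. Of the plasma cell markers 4 were ranked, and of the CD4 T cell markers 3 (Tnfrsf4, Zbtb7b and Cxcr5), while Foxp3 was at 22.4 and 5.07. Without the genes of the marker lists of other cell types, 330 genes were 2-fold higher and 231 lower. The CD4 T cell list was not left out there, so Tnfrsf4 remained among the 330.

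Finally, the TRP1high differences were set beside those of the TRP1low pair, which shares no library with them. Of 9897 genes ranked in both pairs, 113 were 2-fold higher with M9 in both, which is 42.2% of the 268 higher in TRP1high and 22.6% of the 499 higher in TRP1low. The 86 genes 2-fold lower in both made up 43.4% of 198 and 22.99% of 374. Of all 9897 genes, 5.04% were 2-fold higher and 3.78% lower in TRP1low. A further 22 genes, or 8.21% of the 268, were higher in TRP1high and lower in TRP1low, and 13, or 6.57% of the 198, were the reverse. Genes higher with M9 under both receptors included Crabp2, Prf1, Ccl3, Ccl4, Cd200, Tigit, Lag3, Tnfrsf4, Fosl2, Spry1 and Klrk1, and genes lower under both included Cxcr3, Tnfrsf8, Ctla2a, Ikzf2, S1pr1 and Il6st. Ifng, Xcl1, Isg15 and Irf7 had differences of 3.04, 3.40, 3.73 and 2.48 in TRP1high and 0.87, -0.60, 1.14 and -1.92 in TRP1low. With 1 library per group, none of these contrasts between receptors was tested.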

How the data were processed

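Total RNA of sorted mouse T cells was sequenced, 1 library for each of 4 groups taken from the sample titles. The authors' deposited values are headed log2 normalized counts, per the file headers, with 1 value for each gene symbol. The values were read as the log2 of a normalized count plus 1, because the lowest value was 0 and many, though not all, low values fell on steps of 1 read. The submitters' processing notes name Salmon 0.8.2, DESeq2 1.20.0 and mm10, while settings, transcript annotation and filters were not given in the sources used here. Between 56.3% and 56.5% of the values from 0 to 50 normalized counts lay within 0.01 of a whole read, so no count test was run.

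From the deposited values, the M9 minus K8 difference was computed with Python 3.11.15 for genes reaching 100 normalized counts in either TRP1high library, and 2-fold is a difference of at least 1 on this log2 scale. Folds are ratios without the added 1. Reads were rounded for intervals and floors. Positions are from GENCODE M21 (GRCm38), which held 99.1% of the symbols, and 20 names had turned into dates. Steps were tested on simulated data. The comparison, the gene lists and the alternatives were chosen with earlier results of these data known. Named genes are, per list, at most the 5 largest 2-fold differences in each direction and the most abundant member, the 15 largest differences overall in each direction without unnamed gene models, the 10 largest gains and losses of normalized counts, the threshold's neighbours, and members needed to follow a family. Some genes were left out of the lists, the counts over them and the named genes, and are not reported here.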

Additional observations from a re-analysis of the deposited data

Results flagged for a closer look

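Among the named genes that were ranked under both receptors, 5 lay at least 2-fold apart between M9 and K8 in opposite directions under the TRP1high and TRP1low receptors. Each pair holds 1 library per peptide, so the difference between receptors was not tested. Higher with M9 in TRP1high and lower in TRP1low were Idi2, with log2 differences of 4.81 and -1.31, the interferon regulatory factor Irf7, with 2.48 and -1.92, and the galectin gene Lgals3, with 1.43 and -6.30. In the TRP1low pair, myeloid and dendritic markers summed to 380 with K8 and 97.0 with M9, and erythroid markers to 609 and 3.62. The part of RNA from such cells in the TRP1low values of these genes was not tested. Lower with M9 in TRP1high and higher in TRP1low were the STAT5 target Socs2, with -1.31 and 3.95, and the transglutaminase Tgm2, with -1.03 and 4.51. Of the 5, Tgm2 fell under 2-fold in TRP1high in some alternative settings.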

How the results depend on the processing

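The counts of genes 2-fold apart followed the threshold on expression, which by its construction changes how many weakly expressed genes are compared. With a threshold of 10 normalized counts, 828 genes were higher with M9 and 761 lower, with no threshold 1420 and 1413, and with a threshold of 500, 150 and 109, against 331 and 242 at 100. The other settings gave 308 to 359 higher and 214 to 253 lower: 10 added in place of 1, values raised to the floor, scaling to total counts, to the median or by TMM, and leaving out gene models or marker genes of other cells. Those scalings subtracted 0.02, -0.04 and -0.03 from the differences. Of 119 named genes 2-fold apart, 8 fell under 2-fold in some setting (Cd68, Il4ra, Orc1, Serpinb6b, Socs4, Stat4, Tgm2 and Tnfsf11), and Gm10925 passed it with scaling to the median or by TMM. None changed sign while 2-fold apart, but shifts as small as these could not reverse such a difference. No conclusion is drawn from that count. The addition of chromosome 1 copies to mitochondrial genes was chosen after seeing the data. No paired analysis was possible because each group holds 1 library. Leaving out a replicate was likewise not possible. Depth limits folds of genes near the floor of 3 reads.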
